A study of Mus musculus with 16 samples.

Results

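Collagens are the main structural proteins of connective tissue and are made up of chains that wind into a triple helix. The fibrillar types (I, II, III, V, XI, XXIV and XXVII) pack into fibers, the network types (IV, VIII and X) form sheets such as the basement membrane, and the remaining types link, coat or anchor these structures or sit in the cell membrane. In the mammary gland fibroblasts make most of the stromal collagen, and a dense collagen stroma is a known feature of breast tumors. Here 36 collagen genes were followed among the 18132 genes of the array table. They were the genes whose symbol begins with COL, a type number, A and a chain number. A further gene that matched this pattern, COL4A3BP, codes for a ceramide transfer protein rather than a collagen and was left out of all counts. Of the 36 genes, 11 were fibrillar, 8 were network-forming and 17 were of other types. The list of collagens drawn up for the work held 9 more, COL6A3 and COL8A1 among them, that were not analysed here.

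The arrays measured RNA of primary fibroblasts grown from the inguinal mammary glands of female 129S6 mice of 8 to 10 weeks. The mice were MEKK1+/+ or MEKK1-/-. MEKK1, the product of the gene MAP3K1, is a kinase that acts upstream of MAP kinase cascades. Fibroblasts of each genotype were left untreated in DMEM with 10% FBS or were kept for 8 h in CM, the same growth medium after it had been conditioned by cultured MDA-MB-231 cells, a human breast cancer cell line. Each of the 4 groups had 4 arrays, so all 16 arrays shared the strain, sex, tissue and base medium and differed by genotype and by medium. The methods of the study give 3 mice per genotype and do not tie a culture to a mouse. By these numbers some of the 4 cultures of each group must come from the same animal. The spread reported here thus lies between culture replicates, and the 4 arrays of a group are not 4 independent animals. The comparisons asked how CM changed each gene in either genotype and how loss of MEKK1 changed it in either medium. Factors released by the tumor cells cannot be told apart here from other changes of the medium during conditioning.

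Values are normalized log2 intensities, on which a difference of 1 is a doubling. A gene was taken as above background on an array when it exceeded the 99th percentile of the 1075 olfactory receptor genes, which fibroblasts should not use. That level lay between 7.20 and 7.34. Arrays of the same group correlated at 0.979 to 0.996. Of 11 fibroblast marker genes 9 were above background on all 16 arrays, and of the 7 lymphocyte and 7 adipocyte marker genes none was above it on all arrays. Macrophage marker genes were present on every array, with summed intensities from 6993 to 50416, and 15 of 17 were lower in the MEKK1-/- groups in both media although none passed the test. In such cultures fewer cells of a type and less RNA per cell cannot be told apart. Both arrays of MEKK1-/- replicate 1 stood apart, since the 8 epithelial marker genes summed to 11357 and 10227 there and to between 1109 and 1784 on the other 14 arrays. On the arrays of MEKK1-/- replicates 3 and 4 the sums were 1400 to 1784, above the 1109 to 1308 of the MEKK1+/+ arrays. MAP3K1 read 0.53 higher on the MEKK1-/- than on the MEKK1+/+ arrays in untreated cells (limma adjusted p = 0.465) and 0.33 higher with CM (adjusted p = 0.605). The position of its probe relative to the deleted part was not given in the sources used here, so genotype rests on the labels.

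Of the 36 collagen genes 15 (41.7%) were above background on all 16 arrays, 14 on none and 7 on some. Among all genes the share above background on all arrays was 38.2%. The fibrillar group had 5 of 11 on all arrays, namely COL1A1 and COL1A2, the chains of type I collagen, COL3A1 of type III and COL5A1 and COL5A2 of type V. The network group had 3 of 8, and these were the basement membrane chains COL4A1, COL4A2 and COL4A5. The remaining 7 were COL6A1 and COL6A2 of the beaded filaments of type VI, COL12A1 and COL16A1, which associate with fibrils, COL7A1, the chain of anchoring fibrils beneath epithelia, and COL15A1 and COL18A1, the multiplexins found at basement membranes. COL5A3, the third chain gene of type V, was above background on 15 arrays and COL24A1, a fibrillar gene known from developing bone, on 10. The hexagonal network genes COL8A2 and COL10A1 were above background on no array, as were the 3 type IX genes of cartilage.

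**Figure D1:**
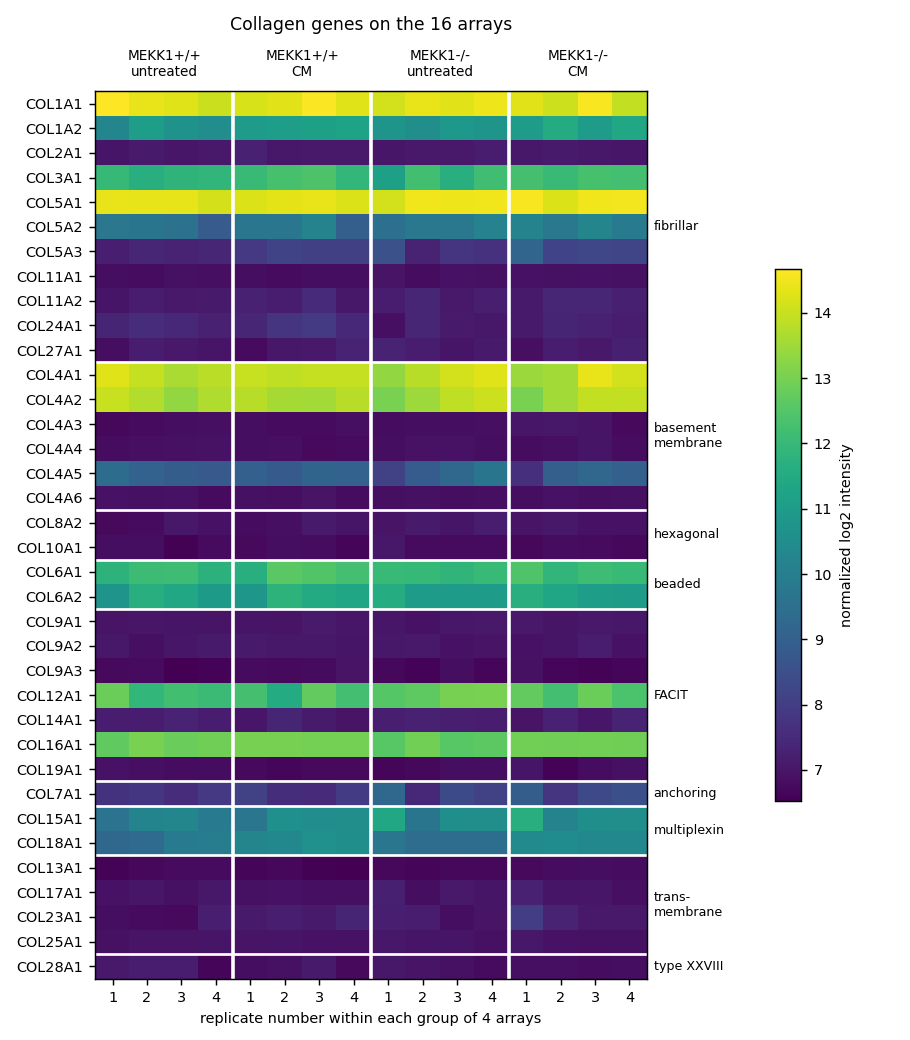
Normalized log2 intensity (color scale) of the 36 collagen genes (lines, ordered by type) on the 16 arrays (columns, in 4 groups of 4 replicates). The bright lines are genes of types I, III, V, IV, VI, XII and XVI, and most lines of the other types stay near the background level of 7.20 to 7.34.

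CM raised 1 collagen gene in MEKK1+/+ fibroblasts and the same 1 in MEKK1-/- fibroblasts. It was COL18A1, whose protein carries endostatin, a fragment known to restrain blood vessel growth, at its end. The share called was 1 of 36 (2.78%) in each genotype, beside 5.01% of all genes in MEKK1+/+ cells and 4.69% in MEKK1-/- cells. The collagen share was thus no higher than that of genes at large. Among all genes 2.27% rose and 2.75% fell in MEKK1+/+ cells, and 2.18% rose and 2.51% fell in MEKK1-/- cells. No collagen gene fell in either genotype by the limma test. At an unadjusted p under 0.05 there were 3 collagen genes in MEKK1+/+ cells (16.8% of all genes) and 6 in MEKK1-/- cells (16.2% of all genes), all of them higher with CM. The z-score procedure named in the methods of the study called 4 in each genotype, which included COL19A1, lower, in MEKK1+/+ cells, beside 10.6% of all genes in MEKK1+/+ and 11.3% in MEKK1-/- cells, so 4 of 36 was near its share over the whole table.

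In MEKK1+/+ fibroblasts COL18A1 read 9.25, 9.37, 9.92 and 9.96 untreated and 10.25, 10.33, 10.64 and 10.58 with CM. In MEKK1-/- fibroblasts it read 9.71, 9.45, 9.43 and 9.46 untreated and 10.41, 10.49, 10.32 and 10.34 with CM. All 8 treated arrays were above all 8 untreated arrays, and the untreated MEKK1+/+ arrays fell into a lower and a higher pair. The difference was 0.83 ± 0.14 (SE, n = 4 per group; 95% interval 0.52 to 1.13; 1.77-fold; limma adjusted p = 0.00401) in MEKK1+/+ cells. It was 0.88 ± 0.14 (95% interval 0.57 to 1.18; 1.83-fold; limma adjusted p = 0.00277) in MEKK1-/- cells. The responses differed between genotypes by 0.05, with a 95% interval from -0.39 to 0.48. Both calls were lost when the deposited values were tested with no further normalization. The difference was then 0.43 in MEKK1+/+ cells (adjusted p = 0.0988), where the median of all genes had itself shifted by -0.28, and 0.80 in MEKK1-/- cells (adjusted p = 0.0606). Leaving out any single array kept both calls (adjusted p from 0.00182 to 0.0179 and from 0.00147 to 0.0128).

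**Figure D2:**
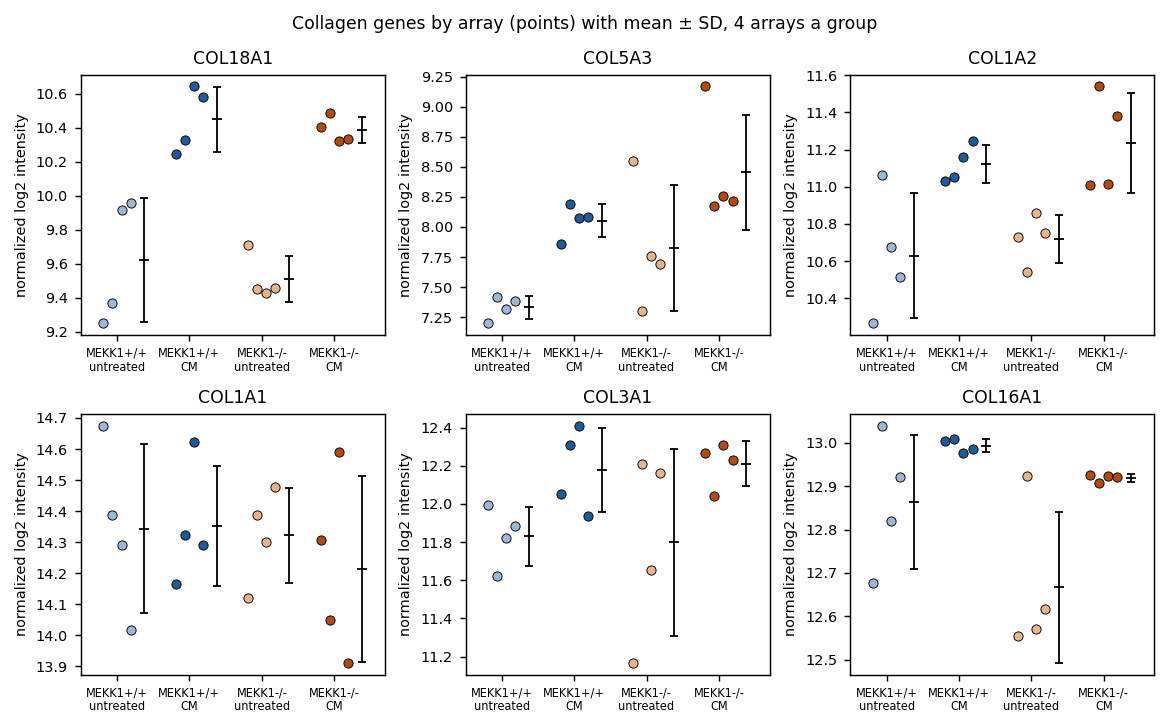
Normalized log2 intensity of COL18A1, COL5A3, COL1A2, COL1A1, COL3A1 and COL16A1 on each array (points), with mean and SD (bars) of the 4 arrays of each group. COL18A1 lies at 9.25 to 9.96 on the untreated arrays and 10.25 to 10.64 on the CM arrays, while the groups of COL1A1 overlap. The vertical axes differ between panels and do not start at 0.

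The sequences just upstream of the start sites are shown for COL18A1 and for the other 2 collagen genes, COL5A3 and COL1A2, whose unadjusted p was under 0.05 in both genotypes. Each run is the 250 bases before a start site in RefSeq on GRCm38.p6, written 5′ to 3′ on the strand of the gene. Capitals mark GC boxes (GGGCGG, or CCGCCC on the other strand) and CCAAT boxes (CCAAT, or ATTGG on the other strand).
Col18a1, start 1, chr10:77166531-77166780, minus strand: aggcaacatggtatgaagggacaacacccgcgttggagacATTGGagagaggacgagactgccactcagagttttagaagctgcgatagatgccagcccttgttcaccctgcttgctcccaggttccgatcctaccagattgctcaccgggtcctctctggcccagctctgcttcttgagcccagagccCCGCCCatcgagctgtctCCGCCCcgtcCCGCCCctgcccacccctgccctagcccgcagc
Col18a1, start 2, chr10:77113706-77113955, minus strand: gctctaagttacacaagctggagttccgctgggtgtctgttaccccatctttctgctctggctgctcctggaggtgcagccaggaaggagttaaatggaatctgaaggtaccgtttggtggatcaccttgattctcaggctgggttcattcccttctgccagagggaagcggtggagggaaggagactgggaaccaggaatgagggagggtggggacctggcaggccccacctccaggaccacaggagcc
Col5a3, chr9:20815068-20815317, minus strand: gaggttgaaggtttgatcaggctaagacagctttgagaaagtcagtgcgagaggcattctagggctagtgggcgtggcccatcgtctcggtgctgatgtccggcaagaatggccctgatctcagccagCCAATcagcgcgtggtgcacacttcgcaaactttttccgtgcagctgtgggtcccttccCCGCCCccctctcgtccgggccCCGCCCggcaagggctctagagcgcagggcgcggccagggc
Col1a2, chr6:4505368-4505617, plus strand: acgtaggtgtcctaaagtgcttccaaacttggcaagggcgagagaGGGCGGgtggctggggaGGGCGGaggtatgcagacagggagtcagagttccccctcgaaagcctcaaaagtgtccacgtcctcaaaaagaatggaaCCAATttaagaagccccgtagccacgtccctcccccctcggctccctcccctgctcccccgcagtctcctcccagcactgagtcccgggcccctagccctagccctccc

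The first Col18a1 window held 3 GC boxes and 1 CCAAT box, and the second held none of the motifs searched. The Col5a3 and Col1a2 windows each held 2 GC boxes and 1 CCAAT box. Across 32851 windows of this length in the table a GC box stood in 32.7% and a CCAAT box in 33.8%, on either strand. Of 38 windows of collagen genes, some of them outside the 36, 22 held a GC box and 13 a CCAAT box. GC boxes are thus not particular to the genes shown. Binding motifs of AP-1 (TGANTCA) and NF-kB, factors downstream of MAP kinase and inflammatory signals, were also searched. AP-1 matched 6.75% of all windows and NF-kB 7.25%, and neither matched these 4. Of the 38 windows of collagen genes 1 held an AP-1 match and 6 an NF-kB match. At such shares the lack of a match in 4 windows says little. Of the 36 collagen genes 29 had a window in the table. The arrays do not tell which of the Col18a1 starts gave the measured RNA.

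The limma test called none of the 11 fibrillar genes, with the smallest adjusted p at 0.0750 in MEKK1+/+ and 0.0653 in MEKK1-/- cells. Both belonged to COL1A2, the minor chain of type I collagen. COL1A2 read 10.26, 11.06, 10.68 and 10.51 in untreated MEKK1+/+ cells and 11.03, 11.05, 11.16 and 11.25 with CM. In MEKK1-/- cells it read 10.73, 10.54, 10.86 and 10.75 untreated and 11.01, 11.54, 11.01 and 11.38 with CM. The MEKK1-/- groups did not overlap, whereas untreated MEKK1+/+ replicate 2 lay among the treated arrays. The differences were 0.49 ± 0.15 and 0.52 ± 0.15 (SE, n = 4 per group). Without untreated MEKK1+/+ replicate 2 both passed, at adjusted p = 0.0208 in MEKK1+/+ and 0.0268 in MEKK1-/- cells, the latter because all arrays share 1 estimate of the spread. The MEKK1-/- call was also gained without untreated MEKK1+/+ replicate 1 (adjusted p = 0.0384) or without CM MEKK1-/- replicate 1 (adjusted p = 0.0418). Leaving out other single arrays raised the adjusted p to as much as 0.199 in MEKK1+/+ and 0.194 in MEKK1-/- cells. Over the alternatives that keep all arrays or drop a pair, the adjusted p ranged from 0.0485 to 0.782 in MEKK1+/+ and from 0.00926 to 0.905 in MEKK1-/- cells, and was highest for the values as deposited. Of the 28 alternatives 26 left COL1A2 uncalled in MEKK1+/+ and 22 in MEKK1-/- cells.

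COL1A1, which codes for the major chain of the same type I molecule, had differences near 0 in both genotypes. It read 14.68, 14.39, 14.29 and 14.02 in untreated MEKK1+/+ cells and 14.17, 14.32, 14.62 and 14.29 with CM. It read 14.12, 14.39, 14.30 and 14.48 untreated and 14.31, 14.05, 14.59 and 13.91 with CM in MEKK1-/- cells. All 4 groups overlapped. The difference was 0.01 (95% interval -0.32 to 0.34) in MEKK1+/+ and -0.11 (-0.44 to 0.22) in MEKK1-/- cells, neither past the test. COL1A1 stood at 31% to 68.3% of the highest intensity of its array. COL5A1 stood at 33.4% to 57.1%, COL4A1 at 17.7% to 52.8% and COL4A2 at 14.5% to 44%. Whether the scale was compressed at such levels was not tested for any of these genes. The log2 ratio of COL1A2 to COL1A1 averaged -3.71 ± 0.48 (SD, n = 4) untreated and -3.23 ± 0.18 with CM in MEKK1+/+ cells, and -3.60 ± 0.22 and -2.98 ± 0.54 in MEKK1-/- cells. Its absolute size also depends on the probes and says nothing of the chain numbers.

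COL5A3, whose chain joins type V molecules of some tissues, lay near background in untreated MEKK1+/+ cells. It read 7.20, 7.41, 7.32 and 7.39 in untreated MEKK1+/+ cells and 7.86, 8.19, 8.07 and 8.08 with CM. In MEKK1-/- cells it read 8.55, 7.30, 7.76 and 7.69 untreated and 9.17, 8.17, 8.26 and 8.22 with CM. The MEKK1+/+ groups did not overlap. In the MEKK1-/- groups replicate 1 was the highest array in both media and made them overlap. The difference was 0.72 ± 0.23 (SE, n = 4 per group; limma adjusted p = 0.0984) in MEKK1+/+ and 0.63 ± 0.23 (adjusted p = 0.166) in MEKK1-/- cells, neither past the test. The replicate numbers were taken to pair the MEKK1-/- arrays across media, although replicates 3 and 4 correlated more with another number. With the replicate number as a block within genotype the MEKK1-/- difference passed (limma adjusted p = 0.000726). That fit blocked both genotypes and shared their estimate of the spread. Its p thus also rests on MEKK1+/+ numbers that are not shown to pair the arrays. Without both arrays of MEKK1-/- replicate 1, a setting added after the epithelial genes were seen, the adjusted p was 0.000911 in MEKK1+/+ and 0.00664 in MEKK1-/- cells. Leaving out untreated MEKK1-/- replicate 1 alone gave 0.0314 and 0.0237, with a MEKK1-/- difference of 0.88, and leaving out CM MEKK1-/- replicate 1 alone gave 0.0357 in MEKK1+/+ cells and lowered the MEKK1-/- difference to 0.39 (adjusted p = 0.358). Over the alternatives that keep all arrays or drop a pair, the adjusted p ranged from 8.08e-15 to 0.145 in MEKK1+/+ and from 0.000726 to 0.602 in MEKK1-/- cells. The value of 8.08e-15 came from the z-score procedure. That procedure takes the spread of a gene from its own 4 arrays per group alone and makes such small values easy to reach.

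The other fibrillar genes had smaller differences. COL3A1, which forms fine fibers beside type I, read 11.99, 11.62, 11.82 and 11.88 untreated and 12.05, 12.31, 12.41 and 11.94 with CM in MEKK1+/+ cells, a difference of 0.34 (adjusted p = 0.384). It read 11.17, 12.21, 11.65 and 12.16 untreated and 12.27, 12.04, 12.31 and 12.23 with CM in MEKK1-/- cells, a difference of 0.41 (adjusted p = 0.274). The lowest COL3A1 value of the study was that of untreated MEKK1-/- replicate 1, and the MEKK1-/- difference was 0.20 without that array and 0.19 without both replicate 1 arrays. COL5A1, the chain that limits fibril width, differed by -0.01 and 0.07 in the 2 genotypes, and COL5A2 by 0.18 and 0.21. The MEKK1-/- values were -0.06 and 0.07 without the replicate 1 arrays. The median difference over the 11 fibrillar genes was 0.16 in MEKK1+/+ (9 higher, 2 lower) and 0.07 in MEKK1-/- cells (8 higher, 3 lower). Over all genes the medians were near 0.00, and 49.3% were higher in MEKK1+/+ and 48.2% in MEKK1-/- cells.

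None of the basement membrane chains passed the test with CM. COL4A1 and COL4A2, which form the common type IV molecule, differed by 0.03 and -0.02 in MEKK1+/+ cells. The corresponding differences in MEKK1-/- cells were 0.00 and -0.01. The intervals were wide, from -0.44 to 0.49 for COL4A1 and from -0.49 to 0.45 for COL4A2 in MEKK1+/+ cells. The chains varied together: COL4A1 spanned 1.08 and COL4A2 1.01 over the 16 arrays, while the log2 ratio of COL4A2 to COL4A1 spanned 0.51. Their genes stand head to head, with RefSeq starts 21 bases apart on opposite strands. The log2 ratio averaged -0.23 and -0.27 in untreated and treated MEKK1+/+ cells and -0.26 and -0.27 in MEKK1-/- cells. COL4A5, a chain of a less common type IV molecule, differed by -0.04 and -0.26. Over the 8 network genes the median difference was 0.01 in MEKK1+/+ and -0.01 in MEKK1-/- cells.

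Among the other types, COL16A1, a fibril-associated collagen, came nearest to the test after COL18A1. In MEKK1-/- cells it read 12.55, 12.92, 12.57 and 12.62 untreated and 12.93, 12.91, 12.92 and 12.92 with CM. Untreated replicate 2 lay with the treated arrays and the other 3 lay below them. The difference was 0.25 ± 0.08 (SE, n = 4 per group; limma adjusted p = 0.104), and it passed without that array (0.34, adjusted p = 0.0120). When single arrays were left out, the adjusted p ran from 0.0120 to 0.255. Over the alternatives that keep all arrays or drop a pair, the adjusted p ran from 0.0298 to 0.9999. Of the 28 alternatives 25 left the difference uncalled. In MEKK1+/+ cells the difference was 0.13 (adjusted p = 0.497). The filament chains COL6A1 and COL6A2 differed by 0.29 and 0.19 in MEKK1+/+ and by 0.15 and 0.11 in MEKK1-/- cells, COL12A1 by -0.07 and -0.27, COL7A1 by 0.06 and 0.09, and COL15A1, the multiplexin most like COL18A1 in build, by 0.38 and 0.19. None of these passed the test. COL15A1 had a 95% interval from -0.35 to 1.10 in MEKK1+/+ cells, which includes the size of the COL18A1 difference.

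**Figure D3:**
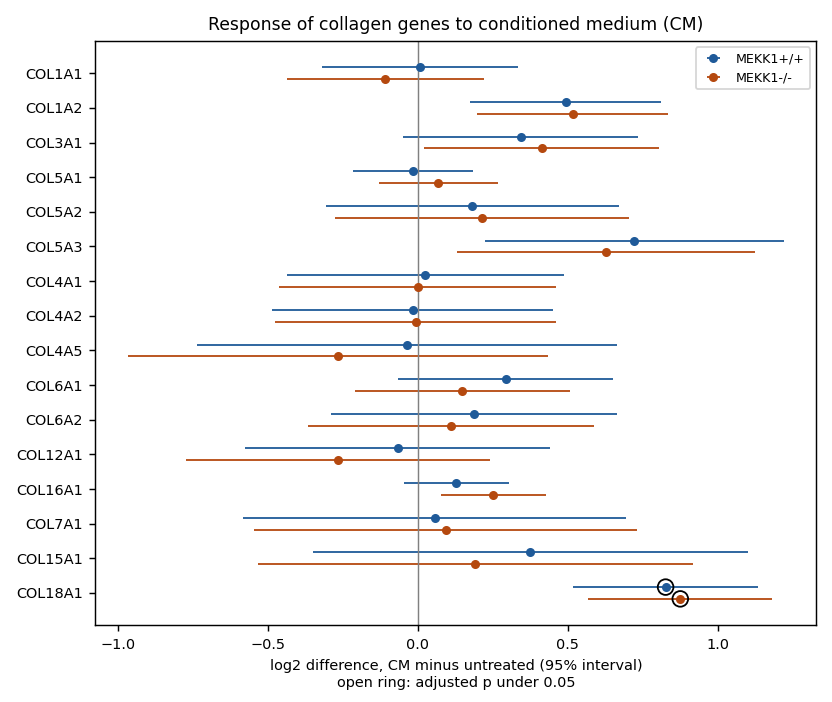
Log2 difference between CM and untreated arrays (horizontal axis, points, with 95% intervals as lines) in MEKK1+/+ (blue) and MEKK1-/- (orange) fibroblasts, for the 15 collagen genes above background on all arrays and COL5A3. Open rings mark an adjusted p under 0.05, which COL18A1 alone reached, at 0.83 and 0.88.

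Across the 15 genes above background on all arrays, 11 were higher with CM in MEKK1+/+ and 10 in MEKK1-/- cells, and this split depended on scaling in MEKK1+/+ cells. With the values as deposited 2 of 15 were higher there, since the median of all genes fell by 0.28 on that scale, and 10 of 15 were higher once each array was shifted to one median. Groups whose arrays did not overlap were found for 3 of 36 collagen genes in each genotype, beside 9.7% of all genes in MEKK1+/+ and 10.4% in MEKK1-/- cells. They were COL18A1, COL5A3 and COL19A1 in MEKK1+/+ cells and COL18A1, COL1A2 and COL13A1 in MEKK1-/- cells. COL19A1 and COL13A1, named after their values were seen, were above background on no array, so their differences of -0.14 and 0.11 have no sure meaning as RNA levels. Of 11 fibroblast markers PDGFRA, a growth factor receptor, was the 1 that passed with CM, and it rose by 0.95 in MEKK1+/+ and 1.00 in MEKK1-/- cells. With CM 8 of the 11 were higher in MEKK1+/+ and 7 in MEKK1-/- cells. Their summed intensities were 57655 to 69317 untreated and 59869 to 76977 with CM in MEKK1+/+ cells. In MEKK1-/- cells they were 60718 to 64839 and 69728 to 72751, which do not overlap. Of 8 smooth muscle and pericyte markers 6 were lower with CM in each genotype, and MYLK, a kinase of smooth muscle contraction, fell by 1.19 (limma adjusted p = 0.0183) in MEKK1+/+ and by 1.76 (adjusted p = 0.00160) in MEKK1-/- cells. Their summed intensities were 29365 to 34362 untreated and 24367 to 29532 with CM in MEKK1+/+ cells, and 26867 to 36273 and 22862 to 29102 in MEKK1-/- cells. The part of these cells in the collagen differences was not tested. None of 17 macrophage, none of 7 endothelial and none of 8 epithelial markers passed the test in either genotype, with medians of -0.08 and -0.03 for the macrophage and -0.06 and -0.14 for the epithelial markers.

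Genes that make, bind or degrade collagen were taken from 6 lists covering hydroxylation and folding, crosslinking, secretion and processing, fibril partners, receptors and degradation. Of these 66 genes 1 rose with CM in MEKK1+/+ cells and 2 rose in MEKK1-/- cells, near the 2.27% and 2.18% of all genes that rose, and none fell. None of 12 hydroxylation and chaperone genes passed, and SERPINH1, the collagen chaperone HSP47, differed by -0.13 and -0.04. None of 9 lysine hydroxylation and crosslinking genes passed, and LOX, the crosslinking oxidase, differed by -0.15 and -0.19. None of 14 processing genes passed, and BMP1, which trims procollagen ends, differed by 0.26 and 0.18. All called genes were among the 10 for degradation. MMP9, a gelatinase that digests denatured collagen and type IV, rose by 2.57 ± 0.64 (SE, n = 4 per group; limma adjusted p = 0.0309) in MEKK1+/+ and by 3.31 ± 0.64 (adjusted p = 0.00772) in MEKK1-/- cells. MMP13, which cuts intact fibrillar collagen, rose by 1.45 ± 0.36 (adjusted p = 0.0331) in MEKK1-/- cells and differed by 1.00 (adjusted p = 0.146) in MEKK1+/+ cells, and the interaction over all genes gave 0 calls.

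Between genotypes no collagen gene passed the test. The limma fit called 0 of 36 in untreated cells, beside 0% of all genes, and 0 of 36 with CM, beside 0.00552% (1 gene). At an unadjusted p under 0.05 there were 4 collagen genes in untreated cells (9.27% of all genes) and 2 with CM (8.09%). The z-score procedure of the methods called 3 of 36 in untreated cells, COL12A1, COL1A1 and COL5A1, beside 4.51% of all genes. With CM it called 2 of 36, COL11A1 and COL13A1, beside 2.54% of all genes. The interaction of genotype with CM called 0 of 36, beside 0% of all genes, with 1 collagen gene at an unadjusted p under 0.05 (COL13A1, beside 2.61% of all genes) and 0 by the z-score procedure (0.11% of all genes). Over the 36 genes the interaction ranged from -0.23 to 0.21.

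COL12A1, which coats fibrils, had the lowest adjusted p among the genes with higher levels in untreated MEKK1-/- cells. It read 12.83, 11.93, 12.20 and 12.07 in untreated MEKK1+/+ and 12.53, 12.65, 13.02 and 13.02 in untreated MEKK1-/- cells. MEKK1+/+ replicate 1 lay among the MEKK1-/- arrays and the other 3 lay below them. The difference was 0.55 ± 0.24 (SE, n = 4 per group; limma adjusted p = 0.520; exact permutation p = 0.0857, two-sided), and with CM it was 0.35 (adjusted p = 0.710). The estimate was 0.30 as deposited and 0.28 with arrays shifted to one median. COL16A1 differed by -0.20 in untreated cells (adjusted p = 0.520), by -0.46 as deposited and by -0.48 with arrays shifted to one median. With CM it read 13.00, 13.01, 12.98 and 12.99 in MEKK1+/+ and 12.93, 12.91, 12.92 and 12.92 in MEKK1-/- cells. These groups did not overlap, with a difference of -0.07 (adjusted p = 0.830) that became 0.00298 SD on z-scores.

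COL24A1 was lower on the MEKK1-/- arrays in both media without passing the test. With CM it read 7.39, 7.78, 7.92 and 7.44 in MEKK1+/+ and 7.11, 7.36, 7.29 and 7.19 in MEKK1-/- cells, close to background, and the groups did not overlap. The difference was -0.40 ± 0.12 (SE, n = 4 per group; limma adjusted p = 0.520). COL24A1 was named because these groups did not overlap. That alone fixes the exact permutation p at 0.0286, the smallest that 4 against 4 arrays allow, so it adds no support. In each medium COL24A1 was above background on all 4 MEKK1+/+ arrays and on 1 MEKK1-/- array. Untreated the difference was -0.30 (adjusted p = 0.520). Groups that did not overlap were found for 0 of 36 collagen genes in untreated cells (4.61% of all genes) and for 4 of 36 with CM (4.17% of all genes). The other 2, COL11A1 and COL13A1, named after their values were seen, were above background on no array. Macrophage markers had medians of -0.82 untreated and -0.84 with CM between genotypes, while 7 of 8 epithelial markers were higher in MEKK1-/- cells, with medians of 0.78 and 0.72. Of 7 endothelial markers, none above background on all arrays, 6 were higher in MEKK1-/- cells in each medium, with medians of 0.27 and 0.22. Their sums did not overlap between genotypes, at 1111 to 1632 against 918 to 1082 untreated and 1145 to 1704 against 898 to 1122 with CM. None of these markers passed the test, and their part in the genotype differences of collagen genes was not tested.

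**Figure D4:**
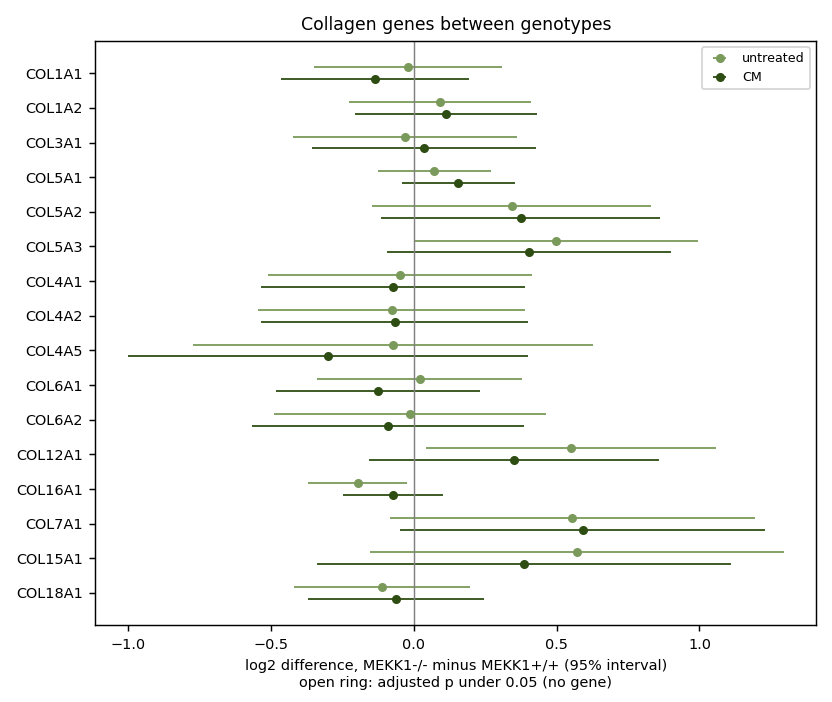
Log2 difference between MEKK1-/- and MEKK1+/+ arrays (horizontal axis, points, with 95% intervals as lines), untreated (light green) and with CM (dark green), for the 15 collagen genes above background on all arrays and COL5A3. No gene reached an adjusted p under 0.05, and the points run from -0.30 for COL4A5 to 0.59 for COL7A1. Both are values with CM, and without the MEKK1-/- replicate 1 arrays they were 0.05 and 0.41.

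No gene of types I, III, IV or VI passed the test between genotypes. COL1A1 differed by -0.02 untreated and -0.14 with CM, COL1A2 by 0.09 and 0.11, COL3A1 by -0.03 and 0.04, COL4A1 by -0.05 and -0.07, COL4A2 by -0.08 and -0.07, COL6A1 by 0.02 and -0.13 and COL6A2 by -0.01 and -0.09. Without the MEKK1-/- replicate 1 arrays COL4A1 turned to 0.13 and 0.07, COL4A2 to 0.11 and 0.13 and COL4A5 from -0.07 and -0.30 to 0.23 and 0.05, and in untreated cells COL1A1 turned to 0.05 and COL3A1 to 0.18. None passed the test there either, so no direction between genotypes can be read for these 5 genes. The 95% interval for COL1A1 in untreated cells ran from -0.35 to 0.31. Of the 15 genes above background 7 were higher on MEKK1-/- arrays in each medium, beside 52.8% of all genes untreated and 51.6% with CM. With arrays shifted to one median it was 4 in each medium, with the values as deposited 4 untreated and 9 with CM, and with z-scores 10 and 11.

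The arrays of MEKK1-/- replicate 1 were at an extreme of their group for several collagen genes. The keratin KRT14 read 11.90 and 11.49 there and KRT8 11.82 and 11.61, beside values up to 7.95 and 8.62 on the other MEKK1-/- arrays. KRT18 (10.41 and 10.20), CLDN4 (10.66 and 10.98) and CDH1 (8.36 and 8.79) were also highest there. KRT19 (8.04 and 8.07), CLDN7 (7.59 and 7.56) and KRT5 (7.17 and 7.145) stayed near their values on the other arrays. COL7A1, which keratinocytes and other epithelial cells also make, read 9.26 and 8.94 on the replicate 1 arrays. It read between 7.45 and 8.52 on the other 6 MEKK1-/- arrays. COL15A1 read 11.39 and 11.64, above 9.70 to 10.60 on the others. COL4A5 was lowest there, at 8.09 and 7.66 against 8.88 to 9.69, and so were COL4A1 (13.34 and 13.45) and COL4A2 (13.05 and 13.04). The same arrays were highest of their group for COL6A1 and COL6A2. In all 7 of the 15 genes were at an extreme on both of these arrays, while 32.2% of all genes above background were. Replicate 1 of MEKK1+/+ had 6 such genes, where 6.89% of all genes above background were at an extreme. No other replicate had more than 3, beside 6.2% to 27.4% of all genes above background. Without both arrays the genotype difference of COL15A1 went from 0.57 to 0.29 untreated and from 0.39 to 0.09 with CM, that of COL7A1 from 0.55 to 0.24 untreated, and that of COL5A3 from 0.50 to 0.26 and from 0.40 to 0.17. The part of epithelial RNA in these differences was not tested. The remaining MEKK1-/- arrays still reached 7.95 for KRT14 and 8.62 for KRT8, against up to 7.03 and 7.715 on the MEKK1+/+ arrays.

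**Figure D5:**
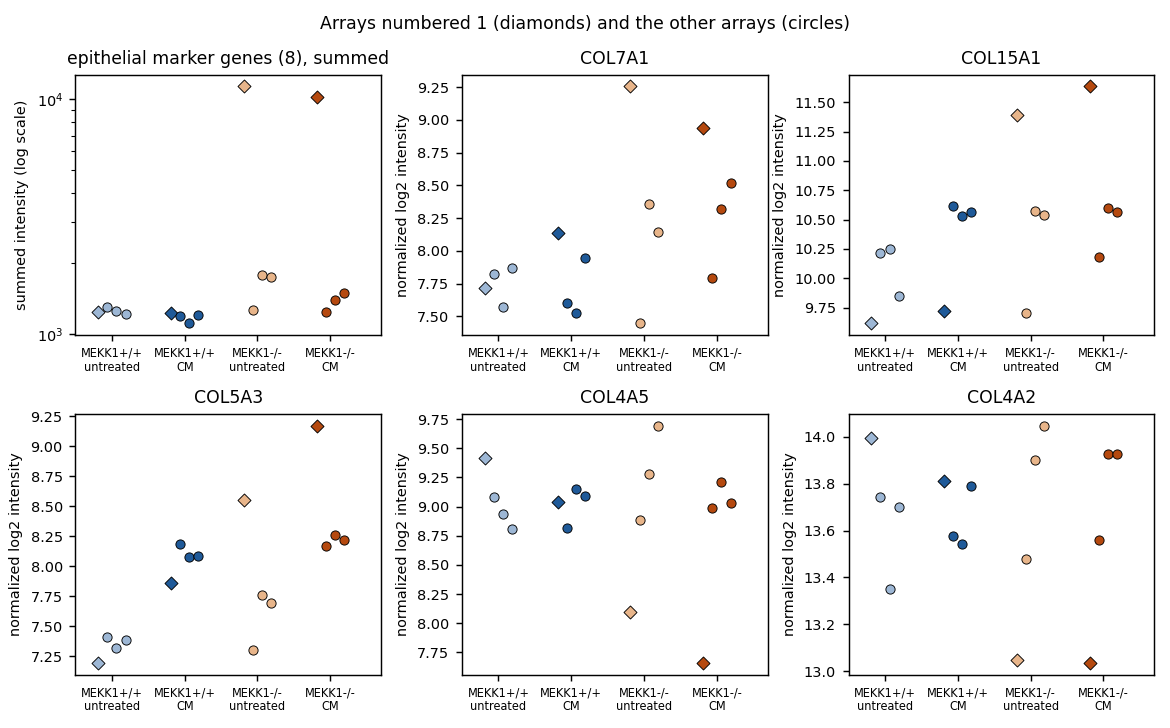
Summed intensity of 8 epithelial marker genes (log axis) and normalized log2 intensity of COL7A1, COL15A1, COL5A3, COL4A5 and COL4A2 on each of the 16 arrays by group, with arrays numbered 1 as diamonds and the others as circles. Both MEKK1-/- diamonds lie at 10227 and 11357 for the marker sum and at the top of their group for COL7A1, COL15A1 and COL5A3 and at the bottom for COL4A5 and COL4A2.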

How the data were processed

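For 16 Illumina Mouse 8 arrays the authors deposited linear intensities, 1 per gene symbol and array. Per the labels a core facility normalized them. How it did so, whether background was subtracted and how several probes were merged are not given in the sources used here. The lowest value is 69.4 and the array medians run from 114 to 170, so the arrays do not share a distribution. Groups and replicate numbers came from the labels.

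The deposited values were taken to log2 and quantile normalized between arrays, with no pseudocount and no filter. All 18132 genes on all 16 arrays were fitted with limma 3.58.1 in R 4.3.3 (lmFit and eBayes, 4 group means, 12 residual degrees of freedom), with Benjamini-Hochberg adjustment over all genes and a threshold of 0.05. The fit was tested on simulated data. Exact permutation tests between 4 and 4 arrays have 70 assignments and a smallest two-sided p of 0.0286. The 36 collagen symbols all matched RefSeq (GRCm38.p6), used for names, start sites and upstream sequence. The precision is limited by 4 arrays a group, and p-values measure the spread between culture replicates from 3 mice per genotype.

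The members and all gene lists were chosen with earlier results of these data known. Named collagens are those above background on all arrays, those called, those above background with groups that do not overlap, and 9 fixed genes of types I, III, IV, V and VI. Pathway genes were named where called, and SERPINH1, LOX and BMP1 after their values were seen.

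Same-numbered arrays deviated together across media in MEKK1-/- cells (r = 0.505, 0.403, 0.219 and 0.251), each over the 0.1 required, so the numbers were taken to pair those arrays, although replicates 3 and 4 correlated more with another number (r = 0.541 and 0.280). In MEKK1+/+ cells 1 pair did not (r = -0.0379). Alternatives were other scalings, the z-score procedure of the methods (difference of mean z-scores over its standard error), a filter on low genes, a pseudocount, fewer groups, other moderation, array weights, replicate blocks and leaving out each array.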

Additional observations from a re-analysis of the deposited data

Results flagged for a closer look

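In 6 of 60 groups of 4 arrays, over the 15 collagen genes above background, 1 array lay apart by Dixon's criterion, which chance meets in about 1 of 20 groups. In 4 of the 6 it was an array of MEKK1-/- replicate 1, which also carried the high sum of epithelial marker genes. On the untreated array COL18A1 read 9.71 (nearest 9.46), COL5A1 14.13 (nearest 14.47) and COL6A2 11.57 (nearest 11.04), and on the CM array COL4A5 read 7.66 (nearest 8.99). The other 2 were COL15A1 on MEKK1+/+ CM replicate 1, at 9.72 (nearest 10.53), and COL5A1 on untreated MEKK1+/+ replicate 4, at 14.16 (nearest 14.37).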

How the results depend on the processing

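For CM in MEKK1+/+ cells the count of collagen genes past the threshold, 1 as reported, was 0 with the values as deposited, 4 by the z-score procedure of the methods, 2 for genes above the median level, 2 with the compared groups only, 2 with array weights, 2 with the replicate block within genotype, 2 without both MEKK1-/- replicate 1 arrays, and 1 to 2 when single arrays were left out. Of all genes tested these settings called, in that order up to the replicate 1 arrays, 4.38%, 10.6%, 11.4%, 3.26%, 6.91%, 8.17% and 6.04%. In MEKK1-/- cells, also 1 as reported, it was 0 as deposited, 4 by the z-score procedure, 2 above the median level, 3 with array weights, 2 with the replicate block within genotype, 2 without the replicate 1 arrays, and 1 to 2 when single arrays were left out, with 0.248%, 11.3%, 10.7%, 7.47%, 7.93% and 4.24% of all genes called in the first 6 of these settings. Between genotypes the z-score procedure gave 3 untreated and 2 with CM in place of 0 (4.51% and 2.54% of all genes), and leaving out single arrays gave 0 to 0. The interaction gave 0 under every alternative run. The difference of COL16A1 between genotypes with CM reversed from -0.07 to 0.00298 SD on z-scores, in limma and in the z-score procedure. Among 16 collagen genes, the 15 above background and COL5A3, leaving out both MEKK1-/- replicate 1 arrays turned the sign of 5 genotype differences untreated, 3 with CM and that of COL5A1 with CM in MEKK1-/- cells. The cause of these changes was not tested. A replicate block over all groups left the counts at 1, 1, 0, 0 and 0. In MEKK1+/+ cells, where the numbers are not shown to pair the arrays, the block within genotype moved COL5A3 to an adjusted p of 0.000400 and all called genes from 909 to 1481. All genes called in MEKK1-/- cells numbered 45 as deposited and 851 as reported. Not run were the fit to the compared groups for the interaction, which needs all groups, and the block within genotype between genotypes, which could not be fitted. With the 95th percentile as background 16 collagen genes were above it in place of 15. Signals near background bound 21 of the 36 genes on at least 1 array.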
